A study of Mus musculus with 18 samples.

Results

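Translation initiation and elongation factors are described here across mouse embryonic stem cells, their germ cell-like derivatives and cultured germ cells. The genes were chosen by symbol alone, as every listed gene beginning Eif or Eef followed by a digit, without the eIF2 kinases (Eif2ak) and without pseudogenes. That rule found 60 genes among the 34850 with a value, and 57 of them reached the level needed for testing, which 9561 genes reached in all. Eef1a2 and Eif4e1b were below it, as was Eif2c5, an older name for a gene of the Argonaute family, whose proteins are not translation factors. Eif2s3y was not analysed here.

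The study followed primordial germ cell-like cells (PGCLCs), made in a dish from embryonic stem cells (ESCs) through an epiblast-like cell (EpiLC) stage, and asked how cyclosporin A (CsA) and FGF signalling act on them in culture. RNA was read with SC3-seq, which sequences transcript 3' ends, in 18 libraries forming 9 groups of 2 replicates. The ESCs, EpiLCs and day-4 PGCLCs were of strain C57BL/6 with the BVSC reporters (Blimp1-mVenus and Stella-ECFP). ESCs were grown with kinase inhibitors (2i) and LIF, EpiLCs were induced with activin A, FGF2 and serum replacement, and PGCLCs with BMP4, LIF, SCF and EGF. Both starting populations were unsorted, whereas the day-4 PGCLCs were sorted for mVenus. The d4c7 groups were B6D2F1 PGCLCs with the same reporters, taken at day 4 of induction, kept for 7 days on the feeder line m220-5 and then sorted for mVenus. Their conditions were labelled FR10, CsA, FGF10 and FGF2. The E9.5c5 groups were germ cells of E9.5 embryos from a cross of B6D2F1 and C57BL/6 with a Stella-EGFP reporter, cultured for 5 days in FR10 or CsA and sorted for EGFP. FR10 stands for forskolin at 10 µM and rolipram, agents that raise cAMP, in a medium with serum, serum replacement and SCF. The sources used here do not state the doses of CsA and the FGFs, whether these were added to FR10, or what the 10 in FGF10 refers to. Replicates are called biological in the labels for the cultured groups only, so the spread between the others may be technical.

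Protein synthesis begins when initiator tRNA, carried by eIF2 and GTP, is placed on the small ribosomal subunit with eIF1, eIF1A, eIF5 and the large scaffold eIF3. The mRNA is brought in through its cap by eIF4E, the scaffold eIF4G and the helicase eIF4A, and the 4E-BP proteins block eIF4E until mTORC1 phosphorylates them. Used eIF2 is recharged by the exchange factor eIF2B, the step that stress kinases shut off. During elongation eEF1A delivers aminoacyl-tRNA and is recharged by the eEF1B subunits, while eEF2 moves the ribosome along and is switched off by its kinase eEF2K. Messenger RNAs of many of these factors start with a C and a run of pyrimidines, which ties their own translation to mTORC1, and Myc proteins bind the E-box CACGTG in the promoters of several growth genes.

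As both sequence features are known from genes of this kind, they were looked for in RefSeq promoters (GRCm38.p6), which were found for 46 of the 60 genes. The E-box CACGTG, which reads the same on both strands, lay within 250 bases upstream of the annotated start in 9 of the 46 (19.6%), against 9.10% of 7360 tested genes and 6.05% of 27025 promoters in all. These are the 30-base stretches around each, on the strand of the gene and with the E-box in capitals.
Eef2: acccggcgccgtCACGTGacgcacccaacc
Eef2k: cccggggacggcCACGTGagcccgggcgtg
Eif1b: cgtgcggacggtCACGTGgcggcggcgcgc
Eif3f: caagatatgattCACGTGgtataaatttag
Eif3k: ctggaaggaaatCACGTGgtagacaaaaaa
Eif4a1: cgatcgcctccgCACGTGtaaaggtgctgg
Eif4g1: ggcagtgggtgtCACGTGatggggcggagc
Eif4h: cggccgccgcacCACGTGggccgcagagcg
Eif5a2, far site: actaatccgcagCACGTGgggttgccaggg
Eif5a2, near site: cagggcgagcttCACGTGacggggcgggac

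These stretches lie at chr10:81176576-81176605 (Eef2), chr7:120842788-120842817 (Eef2k), chr9:120492570-120492599 (Eif1b), chr7:108934335-108934364 (Eif3f) and chr16:20672661-20672690 (Eif4g1) on the plus strand. The Eif3k stretch is at chr7:28981915-28981944, that of Eif4a1 at chr11:69672595-69672624 and that of Eif4h at chr5:134639488-134639517, all on the minus strand. Both Eif5a2 sites are on the plus strand, at chr3:28781123-28781152 and chr3:28781148-28781177. Of these 9 genes 4 (Eef2k, Eif1b, Eif3f and Eif5a2) passed the test in at least 1 comparison below, which is 44.4%, beside 24 of all 57 tested factors (42.1%) and 53.8% of all tested genes. The cAMP response element TGACGTCA was in none of the 46 upstream stretches and in 3.15% of those of tested genes, on either strand. With the 50 bases from the start included it was in 1, that of Eef2, and in 3.75% of those of tested genes, and the E-box was in 10 (21.7%, against 11.2%), Eif3a being added. The composite element TGATGNAAN, a form bound by ATF4, was in 1, that of Eif2s3x, and in 1.89% of those of tested genes. A TATAAA was in 4 of them (8.70%, against 5.61%), and the median GC content was 60.8% against 60.4%.

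A C followed by at least 4 pyrimidines within 3 bases of the annotated start was present in 9 of the 46 genes (19.6%), against 12.5% of tested genes. Eif3f and Eif4g1 held both this run and the E-box. Annotated starts can be off by some bases, so a run may be missed or counted wrongly. The runs of the most abundant factor and of the genes with the longest runs among the translation factors are shown in capitals, in 30 bases of which 10 precede the start.
Eef1a1: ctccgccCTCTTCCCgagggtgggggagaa
Eif3f: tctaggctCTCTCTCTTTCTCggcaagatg
Eif2s3x: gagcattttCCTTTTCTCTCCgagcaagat

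The first is at chr9:78481705-78481734 and the third at chrX:94212632-94212661, both on the minus strand, and the second at chr7:108934405-108934434 on the plus strand. Of the 8 tested genes with such a run 1 was called in each step described below, namely Eif2b5 as lower in EpiLCs against ESCs, Eif3b as higher in day-4 PGCLCs against EpiLCs and Eif3f as higher in FR10 culture against day-4 PGCLCs. Over all tested genes 16%, 39.6% and 15.2% were called in these steps. The log2 changes of the 8 genes went from -0.97 to 0.45, from -0.33 to 0.76 and from -0.89 to 0.87. Medians were -0.13, 0.05 and -0.12, beside 0.10, 0.06 and -0.01 for the 36 tested factors whose promoter had no run. Those of all tested genes were 0.01, 0.34 and -0.07.

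Values are RPM, reads scaled to a common library total, which for 3' end reads follow transcript number and not length. In these bulk libraries fewer cells of a type and less RNA per cell cannot be told apart. Libraries held 2129399 to 7547682 reads as inferred from the smallest value steps, so that 3 reads were worth 0.397 to 1.41 RPM, counting error only. Naive markers summed to 1021 to 1040 RPM in ESCs and 51.6 to 54.9 in EpiLCs, formative markers to 2029 to 2069 in EpiLCs, and early germ cell markers to 1407 to 1535 in day-4 PGCLCs, in the order of the labels. Replicate 2 of d4c7 FGF2, of E9.5c5 FR10 and of E9.5c5 CsA stood apart from their partners. Between the replicates of E9.5c5 CsA, 8 of the 57 factors differed by more than 1 log2 unit, as did 12 in d4c7 FGF2 and 4 in E9.5c5 FR10, against 0 to 3 in the other groups. Eef1b2 shows it, with 3238 and 525 RPM in E9.5c5 CsA, as does Eif4a1 with 709.8 and 147 RPM. Results that rest on these libraries are given with and without them. The 3 were picked from these same data, and each gene's spread is estimated over all groups. Leaving them out therefore tends to lower the spread and to add calls over all genes. Calls gained that way are no independent support.

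Together the 60 genes made up 3.89% and 3.81% of all reads in the ESC libraries, and the share was lower in each later population. It was 3.68% and 3.46% in EpiLCs, 3.44% and 3.31% in day-4 PGCLCs and 3.21% and 3.14% in FR10 culture. The other cultured libraries lay between 2.07% and 3.27%, with the lowest value in replicate 2 of E9.5c5 CsA. Eef1a1, the carrier of aminoacyl-tRNA, alone gave 24.8% to 44.3% of the factors' reads. Its level was 17241 and 16719 RPM in ESCs, 13932 and 12874 in EpiLCs, 12041 and 11690.2 in day-4 PGCLCs and 12622 and 11318 in FR10. No overlap was seen between the ESC libraries and any other library, but none of the steps passed the test for this gene. It was called lower without the 3 libraries that stood apart, in EpiLCs against ESCs (log2 change -0.34, adjusted p = 0.026, against 0.55 with all libraries). Without Eef1a1 the sum was 21636 and 21346 RPM in ESCs and 22350.4 and 21391 RPM in day-4 PGCLCs, so that these groups overlapped. EpiLCs, at 22890.5 and 21766 RPM, were above both ESC libraries. FR10 culture, at 19528 and 20080 RPM, was below every library before culture.

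**Figure D1:**
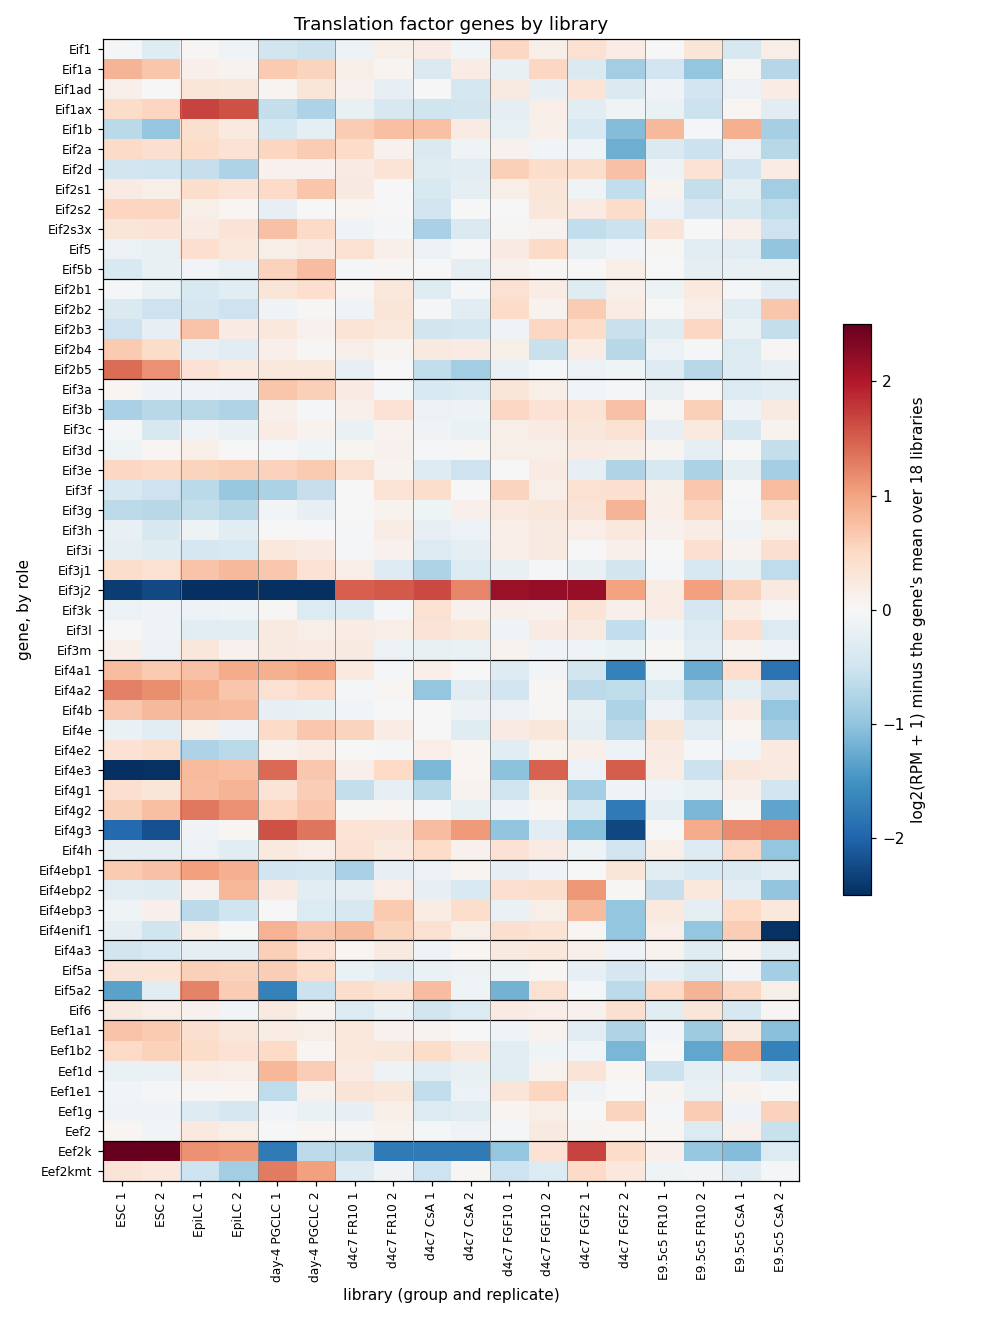
Heat map of log2(RPM + 1) of the 57 tested genes in 18 libraries, each gene relative to its own mean over the libraries (colour bar, log2 units, limited to 2.5 either way), with genes in rows ordered by role and libraries in columns by group. Eif3j2 is blue in the 6 libraries before culture and red in most of the cultured ones, Eef2k is red in ESCs, and the second replicates of d4c7 FGF2 and both E9.5c5 groups differ from their partners in Eif4a1, Eif4g2 and Eef1b2.

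Among the other elongation factors Eef2, the translocase, lay between 827 and 1438 RPM in all 18 libraries, and its group means differed by at most 1.3-fold. Eef1g, a subunit of the eEF1A exchange factor, had 1711 and 1676 RPM in ESCs and 1571 and 2015 in FR10. Over all libraries it ranged from 1361 to 2806 RPM. Its partner subunit Eef1b2 had 2361 and 2525 RPM in ESCs and 2049 and 2058 in FR10, and ranged from 525 to 3238 RPM, with both ends of that range in E9.5c5 CsA. The third subunit, Eef1d, ranged from 85.7 to 224 RPM and was highest in day-4 PGCLCs. Eif5a, which helps ribosomes through proline-rich stretches, was among the most abundant factors, with 1916 and 1929.7 RPM in ESCs. Eef1a2, the eEF1A form of muscle and neurons, was listed at 0 in 17 libraries and at 1.16 RPM, 3 reads, in EpiLC replicate 2. Eif4e1b, the cap-binding protein of oocytes, was listed at 0 in all 18 libraries.

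In EpiLCs against ESCs 4 factors rose and 4 fell of 57, a share of 14.0%, where 16% of all tested genes were called, 7.09% higher and 8.86% lower. Without the 3 libraries that stood apart 17 factors were called, where 29.5% of all genes were. The 9 added were Eif1b, Eif2b3, Eif4enif1, Eif4g2 and Eif5 as higher and Eef1a1, Eif1a, Eif2b4 and Eif2s2 as lower. Calls are from limma on log2(RPM + 1), at a Benjamini-Hochberg adjusted p under 0.05 over all 9561 genes. The median log2 change of the factors was 0.08, beside 0.01 over all genes. Those that rose were initiation factors (Eif1ax, Eif4g3, Eif4e3) and Eif5a2. Those that fell were the cap-binding Eif4e2, the exchange factor subunit Eif2b5, and Eef2k and Eef2kmt, whose enzymes modify eEF2.

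Eif1ax, the X-linked gene for eIF1A, which helps the small subunit scan for the start codon, had 308 and 328 RPM in ESCs and 724 and 681 in EpiLCs. The EpiLC libraries held the highest values of the series, and the groups were far apart. The log2 change was 1.14 ± 0.19 (SE, adjusted p = 0.00042). Its autosomal copy Eif1a had 226 and 205 RPM in ESCs and 138 and 134 in EpiLCs, and did not pass (adjusted p = 0.14). Eif1a thus gave 42.3% and 38.4% of the reads of the pair in ESCs and 16.0% and 16.4% in EpiLCs.

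Eif4g3 makes a second form of the cap-complex scaffold eIF4G. It had 11 and 9.06 RPM in ESCs and 42.3 and 46.8 in EpiLCs, a log2 change of 2.05 ± 0.37 (SE, adjusted p = 0.00075) with no overlap. The main scaffold gene Eif4g1 had 104 and 95.6 RPM in ESCs and 133 and 140.4 in EpiLCs (adjusted p = 0.40). As a share of the pair Eif4g3 went from 9.58% and 8.66% to 24.2% and 25%. Eif4e3, a weaker cap-binding relative of eIF4E, was at 0 and 0.185 RPM in ESCs, the latter 1 read, and at 10.3 and 10.1 in EpiLCs (adjusted p = 0.0025). Both ESC libraries were below the value of 3 reads, so its fitted log2 change of 3.36 depends on the pseudocount and is no fold. Eif4e2, a cap-binding protein that represses translation, went the other way, with 193 and 204 RPM in ESCs and 88.0 and 94.0 in EpiLCs, a log2 change of -1.12 ± 0.19 (SE, adjusted p = 0.00044). The cap-binding Eif4e itself had 215 and 197 RPM in ESCs and 266 and 217 in EpiLCs, which did not pass.

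Eif2b5, the catalytic subunit of the eIF2B exchange factor, had 212 and 179 RPM in ESCs and 104 and 94.8 in EpiLCs. The log2 change was -0.97 ± 0.20 (SE, adjusted p = 0.0029), and without ESC replicate 1 the adjusted p was 0.057. Both ESC libraries were above the other 16, none of which exceeded 104 RPM. Eef2k, the kinase that switches off eEF2, had 35.9 and 35.3 RPM in ESCs and 6.48 and 6.19 in EpiLCs, a log2 change of -2.32 ± 0.62 (SE, adjusted p = 0.015). The replicates agreed closely. Still the call was lost without any 1 of the 4 libraries (adjusted p of 0.075 to 0.089) and with a pseudocount of 0.1 RPM (adjusted p = 0.25). Eef2kmt, a methyltransferase of eEF2, had 53.4 and 51.4 RPM against 29.3 and 22.8, a log2 change of -0.99 ± 0.26 (SE, adjusted p = 0.012). That call was lost without either ESC library or EpiLC replicate 2 (largest adjusted p 0.14). Eif5a2, the second eIF5A gene, had 6.89 and 15.5 RPM in ESCs and 45.9 and 29.8 in EpiLCs (log2 change 1.73 ± 0.53, adjusted p = 0.032). It lost the call without ESC replicate 1 or either EpiLC library (largest adjusted p 0.32) and without the filter on low values.

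**Figure D2:**
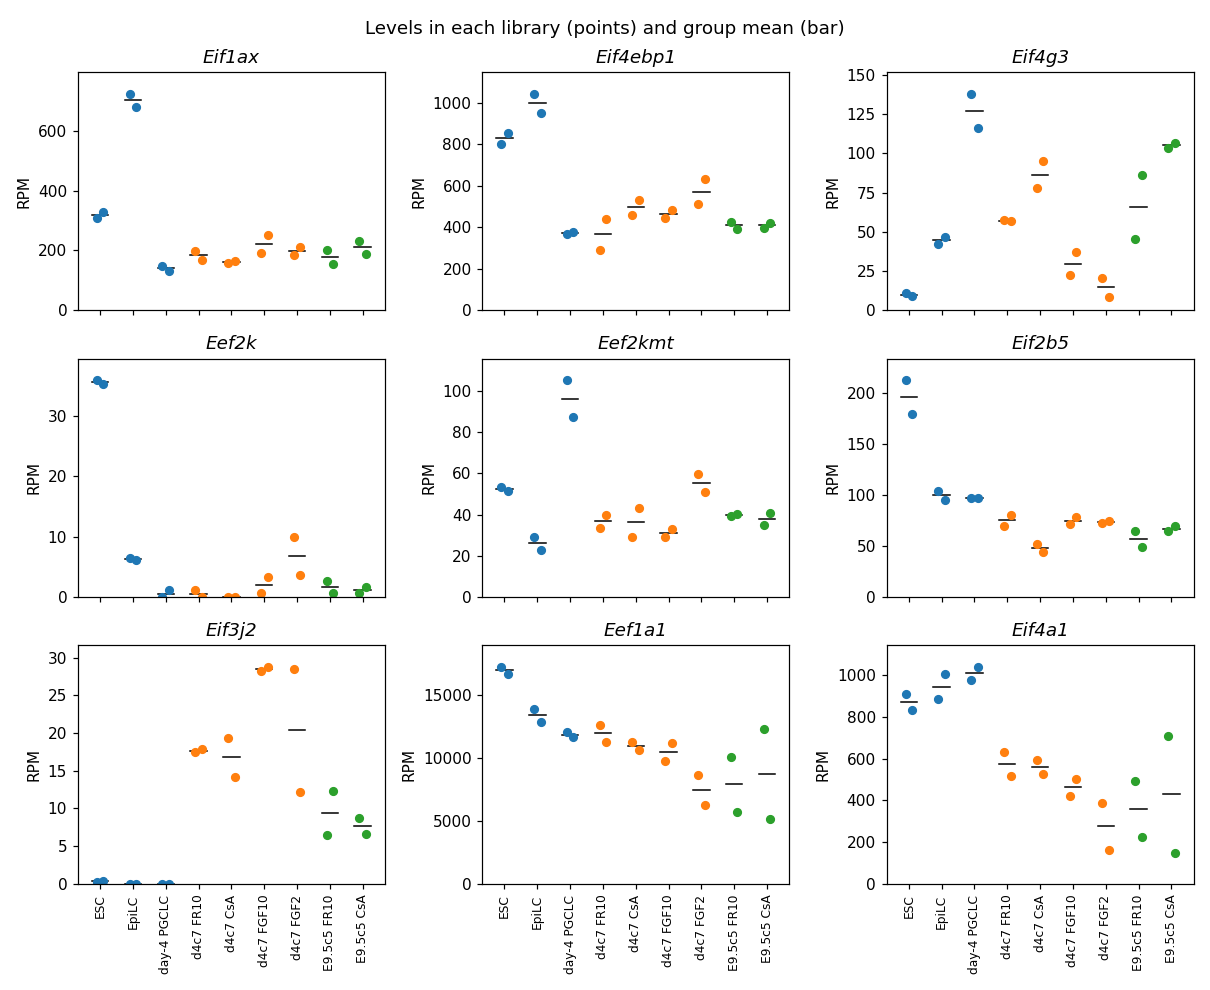
RPM of 9 factors in each library (points) with the mean of each group of 2 (bar), for groups along the horizontal axis, blue before culture, orange for cultured PGCLCs and green for cultured embryo germ cells. Eif1ax peaks in EpiLCs at 724 and 681 RPM, Eif4g3 and Eef2kmt peak in day-4 PGCLCs, Eef2k is highest in ESCs, and Eif3j2 is at or near 0 in every library before culture.

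From EpiLCs to day-4 PGCLCs 12 factors rose and 5 fell of 57 (29.8%), where 39.6% of all tested genes were called, 27.5% higher and 12.1% lower. All genes together had a median log2 change of 0.34 and the factors one of 0.12. With the libraries rescaled so that the median over all genes was near 0 (median-ratio scaling), the factors' median was -0.22, and 2 rose and 14 fell, where 36.1% of all genes were called, 17.4% higher and 18.7% lower. Only Eef2kmt and Eif4g3 kept a call as higher under that scaling, and all 5 that fell stayed called. In the fit without the 3 libraries that stood apart 25 factors were called, 17 higher and 8 lower, where 55.5% of all genes were called. The 8 added were Eif1a, Eif3l, Eif4e, Eif4enif1 and Eif4h as higher and Eif1, Eif1b and Eif4g2 as lower. The sort separates these groups as well as the induction, and the effects of both cannot be told apart.

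Eif1ax fell from 724 and 681 RPM in EpiLCs to 148 and 131 in day-4 PGCLCs, the lowest values of the series. Its log2 change was -2.32 ± 0.19 (SE, adjusted p = 1.3e-07). Eif1a was at 199.6 and 185 RPM in day-4 PGCLCs and then made up 57.4% and 58.5% of the pair, above its share in every other library. Eif4ebp1, the 4E-BP that holds eIF4E inactive, had 1044 and 948 RPM in EpiLCs and 367 and 377 in day-4 PGCLCs. That was a log2 change of -1.42 ± 0.19 (SE, adjusted p = 1.9e-05), and no later library came back above 631 RPM. Its relatives Eif4ebp2 (13.1 and 22.4 RPM against 14.1 and 9.85) and Eif4ebp3 (22.9 and 25.5 against 37.1 and 28.6) did not pass. Calls for Eif1ax and Eif4ebp1 were kept without any single library.

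Eif4b, which stimulates the helicase eIF4A, had 767 and 762 RPM in EpiLCs and 381 and 387 in day-4 PGCLCs. Its log2 change was -0.99 ± 0.27 (SE, adjusted p = 0.0089), although the replicates differed by under 10 RPM. Without EpiLC replicate 1, EpiLC replicate 2 or day-4 replicate 1 the largest adjusted p was 0.053. The helicase genes themselves did not pass. Eif4a1 had 886 and 1004 RPM in EpiLCs and 978 and 1039 in day-4 PGCLCs, and Eif4a2 had 429 and 377 against 305 and 325. Eef2k was at 0 and 1.16 RPM in day-4 PGCLCs, after 6.48 and 6.19 in EpiLCs (adjusted p = 0.0069, and 0.096 without day-4 replicate 1), and its fitted log2 change of -2.32 depends on the pseudocount. Eif5a2 returned to 5.17 and 12.7 RPM from 45.9 and 29.8 (log2 change -2.05 ± 0.53, adjusted p = 0.0058). Without EpiLC replicate 1 or day-4 replicate 1 its call was lost (largest adjusted p 0.098).

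Eef2kmt rose most, from 29.3 and 22.8 RPM to 105 and 87.3, the highest levels of the series (log2 change 1.85 ± 0.26, SE, adjusted p = 3.2e-05). Eif4g3 rose again, to 138 and 116 RPM (log2 change 1.49 ± 0.37, SE, adjusted p = 0.0042). Eif4g1 was at 98.6 and 119 RPM, so the second scaffold gene now gave 58.3% and 49.3% of the pair. Both rises were kept without any single library. The eIF4G-like Eif4g2, which serves cap-independent initiation, had 1434 and 1269 RPM in EpiLCs and 836 and 911 in day-4 PGCLCs. It did not pass (adjusted p = 0.22), but was called without the 3 libraries that stood apart (0.00015).

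Of the 14 eIF3 genes 4 rose and none fell in the deposited scale (median log2 change 0.15). That is 4 of 14 where 27.5% of all genes were called higher, and the median is below that of all genes, 0.34. Eif3a, the largest scaffold subunit, had 376 and 366 RPM in EpiLCs and 640.1 and 599.9 in day-4 PGCLCs (log2 change 0.74 ± 0.15, SE, adjusted p = 0.0010). Eif3b rose by 0.76 ± 0.20, Eif3i by 0.64 ± 0.17 and Eif3g by 0.52 ± 0.20. All 4 had changes above the all-gene median of 0.34, but none stayed called with median-ratio scaling. Others that rose in the deposited scale and lost the call with that scaling were Eif5b (0.80 ± 0.18), the GTPase that joins the subunits, and Eif4e2 (0.86 ± 0.19). So did Eif2d (0.79 ± 0.23), which delivers initiator tRNA apart from eIF2, and Eif4a3 (0.69 ± 0.18), a helicase of the exon junction complex. Eif2b1 (0.69 ± 0.22), a regulatory eIF2B subunit, and Eef1d (0.55 ± 0.20), of the eEF1A exchange factor, completed the 12. Without 1 library at a time, calls were lost for Eif2b1, Eif3g and Eef1d in each of 4 cases, with adjusted p up to 0.22. Eif2d lost its call without EpiLC replicate 2 or either day-4 library (up to 0.086), and Eif3b and Eif4a3 without day-4 replicate 1 (0.062 and 0.073). Eif2s1, the eIF2 subunit that stress kinases phosphorylate, had 295 and 274 RPM in EpiLCs and 303 and 353 in day-4 PGCLCs, and Eif2s3x, its X-linked GTP-binding subunit, had 123 and 133 against 178 and 149. Neither passed, nor did Eif6, which keeps free large subunits apart (159.8 and 142 RPM against 174 and 158).

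**Figure D3:**
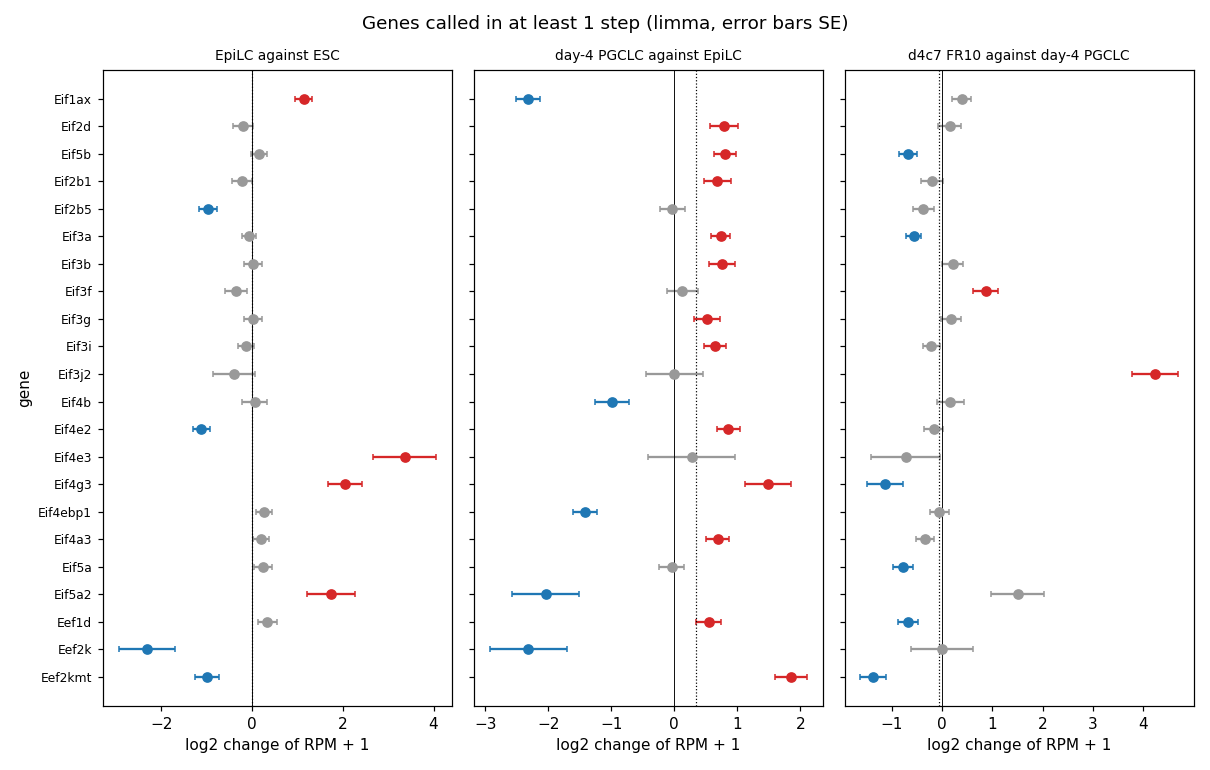
Log2 change of RPM + 1 with its SE (horizontal axis) for the 22 factors called in at least 1 of 3 steps, in panels for EpiLC against ESC, day-4 PGCLC against EpiLC and d4c7 FR10 against day-4 PGCLC. Red is called higher, blue called lower, grey not called, and the dotted line is the median of all genes (0.01, 0.34 and -0.07), near which several of the factors called higher in the second panel lie.

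Neighbouring genes of the pathway were read in the same step from lists of kinases, stress targets, mTORC1 components and other translation genes. These lists were chosen with earlier results of these data known, so their counts beside all genes are no independent test. In the list of eIF2 kinases and their stress targets 2 of 10 tested genes rose and 5 fell, where 27.5% and 12.1% of all tested genes did. They were the same genes under median-ratio scaling. Atf4, the transcription factor made when eIF2 is phosphorylated, went from 818 and 723.5 RPM to 217 and 198. Chac1, one of its targets, went from 77.5 and 56.5 to 4.70 and 5.02 RPM. Ddit3, Trib3 and Asns fell too. Ddit3 lost its call without any 1 of the 4 libraries and without the filter on low values, and Asns without EpiLC replicate 1, without day-4 replicate 2 and without the filter. Those that rose were Ppp1r15b, which recruits the phosphatase for eIF2 (40.4 and 45.3 RPM to 169 and 156), and Impact, an inhibitor of the eIF2 kinase GCN2 (21.5 and 38.7 to 102 and 101). Of 8 tested mTORC1 and cap-control genes 5 rose (Mtor, Mknk2, Rps6kb1, Rptor and Pdcd4), and with median-ratio scaling Mtor and Pdcd4 remained. Leaving out 1 library at a time left 1 to 3 calls, of which only Mtor was kept each time. Rps6kb1 and Rptor were lost in all 4 cases, Mknk2 without either replicate 2, and Pdcd4 without EpiLC replicate 2. Mtor itself had 34.9 and 40.6 RPM in EpiLCs and 99.1 and 106 in day-4 PGCLCs. Among 5 genes of termination and recycling Gspt1 (eRF3, 284 and 300.2 to 665 and 538 RPM) rose, while Abce1, which splits ribosomes (405 and 436 to 163 and 201 RPM), and Mcts1 fell. Mtif2 and Mtrf1 rose among 8 mitochondrial translation factors, Pabpc4 fell among 4 poly(A)-binding genes, and Dohh, which completes the hypusine residue of eIF5A, rose but lost its call with median-ratio scaling. Without any 1 of the 4 libraries Dohh, Pabpc4, Mcts1 and Mtrf1 lost their calls, as did Gspt1 without either replicate 1 and Mtif2 without day-4 replicate 1. In EpiLCs against ESCs, where 16% of all genes were called, Impact and Asns were lower and Paip2 higher. Asns and Paip2 lost the call without any 1 of the 4 libraries, and Impact without ESC replicate 2 or EpiLC replicate 1. With median-ratio scaling Asns was lost and Atf4 gained as higher, and without the 3 libraries that stood apart Atf4, Chac1 and Trib3 were called higher.

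After 7 days in FR10 culture 2 factors were higher than in day-4 PGCLCs and 6 lower, 14.0% of 57, where 15.2% of all tested genes were called, 7.01% higher and 8.22% lower. With median-ratio scaling 3 were called higher and 4 lower, where 7.92% and 7.09% of all genes were. Without the 3 libraries that stood apart 22 factors were called, where 31% of all genes were. The 14 added were Eef1e1, Eif1, Eif1ax, Eif1b and Eif5a2 as higher and Eif2s1, Eif2s3x, Eif3e, Eif3j1, Eif4a1, Eif4a3, Eif4g1, Eif4g2 and Eif6 as lower. The medians were -0.05 for the factors and -0.07 for all genes. The day-4 PGCLCs were C57BL/6 and the cultured cells B6D2F1, so culture and strain cannot be told apart in this comparison. Feeder and fibroblast markers, 10 genes in sum, were at 333 to 349 RPM in the day-4 libraries and 242 to 280 in FR10, with Lum at 0 in each. Their part in the results was not tested.

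Eif3j2, a copy of the eIF3 subunit gene Eif3j1, was listed at 0 in both EpiLC and both day-4 libraries and at 0.265 and 0.370 RPM, 2 reads each, in ESCs. In FR10 it had 17.4 and 18 RPM, and all 12 cultured libraries lay between 6.46 and 28.8 RPM. No cultured library overlapped with any library before culture (adjusted p = 1.4e-05 for FR10 against day-4 PGCLCs). The fitted log2 change of 4.22 was 7.47 with a pseudocount of 0.1 RPM and 1.47 with one of 10 RPM, and is no fold. Every cultured group has B6D2F1 in its strain and no other group has. Of the 30-base words in the last 300 transcript bases of Eif3j2, 88.9% also occur in Eif3j1 transcripts (GENCODE vM21), so reads of the 2 genes may be shared. Eif3j1 had 72.3 and 57.7 RPM in day-4 PGCLCs and 50.7 and 35.6 in FR10, which did not pass.

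Eif3f, another eIF3 subunit, had 281 and 329.6 RPM in day-4 PGCLCs and 496 and 621 in FR10. The log2 change was 0.87 ± 0.25 (SE, adjusted p = 0.026), without overlap, and all 12 cultured libraries, at 489 to 831 RPM, lay above all 6 before culture, at 254 to 371 RPM. Its call was lost without any 1 of the 4 libraries (largest adjusted p 0.22) and without the filter on low values.

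Among the 6 factors that fell were Eef2kmt, Eif4g3, Eif3a, Eif5b and Eef1d, each called higher in the step before. How often this was so over all genes was not counted. Eef2kmt went from 105 and 87.3 RPM back to 33.7 and 39.7 (log2 change -1.37 ± 0.26, SE, adjusted p = 0.0016), the only fall kept without any single library. Eif4g3 fell to 57.7 and 56.6 RPM (-1.13 ± 0.37, SE, adjusted p = 0.046), a call also lost with median-ratio scaling, with a pseudocount of 0.1 RPM and without the filter. Eif3a fell to 457 and 386 RPM (-0.56 ± 0.15, SE, adjusted p = 0.018), also lost with median-ratio scaling. Eif5b fell by 0.68 ± 0.18 and Eef1d by 0.68 ± 0.20 on the log2 scale. Eif4g3 and Eif5b lost the call without any 1 of the 4 libraries (largest adjusted p 0.24 and 0.13), and Eif3a and Eef1d without either day-4 library or FR10 replicate 2 (0.18 and 0.26). These comparisons share the day-4 libraries, so a level that was high there enters both.

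Eif5a, not called in the earlier steps, fell from 2345 and 2102 RPM to 1351 and 1258 (-0.77 ± 0.20, SE, adjusted p = 0.015). All 12 cultured libraries, at 842 to 1574 RPM, lay below all 6 libraries before culture, at 1916 to 2345 RPM. Its call was lost without day-4 replicate 1 or either FR10 library (largest adjusted p 0.12). Eif4a1 showed a similar gap without a call, with 978 and 1039 RPM in day-4 PGCLCs and 630.4 and 515 in FR10. Levels of Eif1ax (198 and 169.9 RPM), Eif4ebp1 (292 and 441) and Eef2k (1.16 and 0) did not pass against day-4 PGCLCs, and Eif2b5 had 69.7 and 80.4 RPM. In the lists around them, where 15.2% of all genes were called, Ppp1r15b, Impact (of 10 stress genes), Rps6kb1 (of 8 mTORC1 genes), Gspt1 (of 5) and Mtif2 (of 8) fell. Trib3 and Mtor rose, Mtor to 192 and 169 RPM. Impact and Rps6kb1 lost the call without any 1 of the 4 libraries, and Mtor in 3 of these 4 cases. Gspt1 and Trib3 lost it without day-4 replicate 1 or FR10 replicate 2, and Mtif2 without FR10 replicate 2, while Ppp1r15b kept it in all 4.

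No factor was called in CsA against FR10 in cultured PGCLCs, where 0.0314% of all tested genes were called by limma. At an unadjusted p under 0.05 there were 9 of 57 (15.8%), beside 13.8% of all genes. The median log2 change was -0.19 for the factors and -0.24 for all genes. Smallest of all was the p of Eif2b5, with 69.7 and 80.4 RPM in FR10 and 51.8 and 43.8 in CsA (log2 difference -0.64 ± 0.20, SE, adjusted p = 0.20). Its libraries did not overlap, and CsA replicate 2 held the lowest value of the series. Eif3e had 499 and 409 RPM in FR10 and 308 and 269 in CsA (adjusted p = 0.23). Eef1e1, a scaffold protein of the tRNA synthetase complex, had 253 and 247 against 133 and 184 (adjusted p = 0.21). Eif3a had 457 and 386 against 307 and 313 (adjusted p = 0.23), and Eif4a2 had 229 and 242 against 119.5 and 192 (adjusted p = 0.25).

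Without the 3 libraries that stood apart 8 factors were called lower in CsA, 14.0% of 57, where 10.1% of all genes were called and 8.29% called lower. They were Eef1e1, Eif2a, Eif2b5, Eif2d, Eif3a, Eif3e, Eif4a2 and Eif4e, with adjusted p-values of 0.0053 to 0.036. None of those 3 libraries belongs to the groups compared, so the log2 differences are the same in both fits and only the spread differs. Calls over all genes rose as well, from 0.0314% to 10.1%. As the 3 libraries were picked from these same data, the 8 calls are no independent support. With median-ratio scaling the difference of Eif2b5 was -0.42 and that of Eif3a -0.21. Eif4ebp1 went the other way, with 292 and 441 RPM in FR10 and 461 and 533 in CsA, and did not pass. Feeder markers summed to 242 to 280 RPM in FR10 and 120.0 to 222 in CsA, and later germ cell markers to 859 to 1003 and 391 to 539. Their part in these values was not tested.

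**Figure D4:**
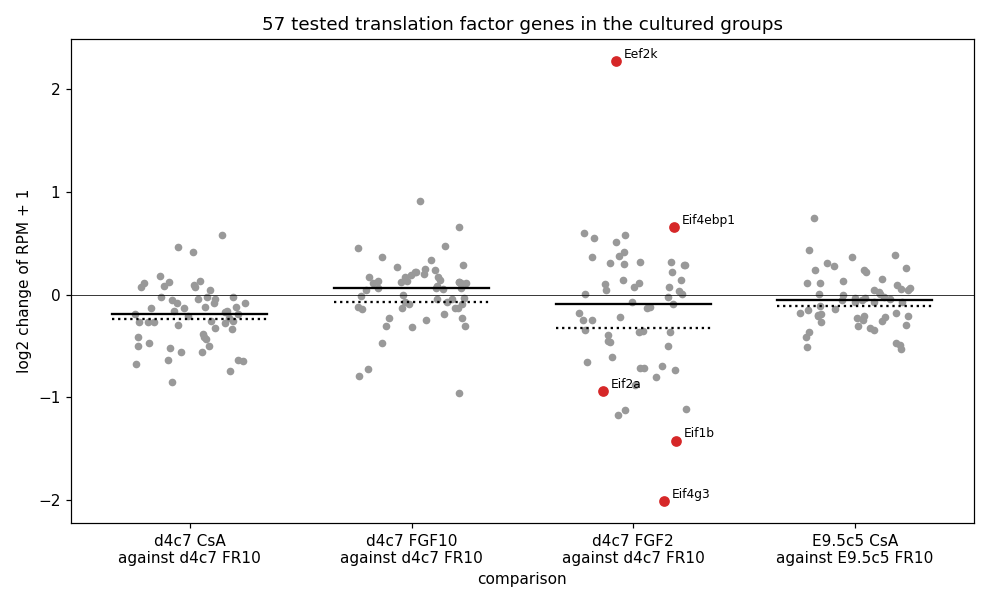
Log2 change of RPM + 1 of the 57 tested factors (points) in 4 comparisons of cultured cells along the horizontal axis, with the median of the factors (solid line) and of all genes (dotted line). Only FGF2 against FR10 has called factors (red, named), and the medians lie between -0.33 and 0.07.

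FGF10 against FR10 gave no called factor and no called gene (0%). At an unadjusted p under 0.05 there were 2 factors (3.51%), beside 4.99% of all genes. The factors' median was 0.07 and that of all genes -0.08. Eif4g3 had 57.7 and 56.6 RPM in FR10 and 22.2 and 37.3 in FGF10 (log2 difference -0.96 ± 0.37, SE, adjusted p = 0.94), without overlap. Eif6 had 116 and 131 RPM in FR10 and 171 and 167 in FGF10 (adjusted p = 0.98). Eif1b, a second eIF1 gene, had 76.3 and 82.9 against 42.6 and 53.5 RPM, and Eif1 had 341 and 419.8 against 541 and 419.8, both with an adjusted p of 0.98. Eif4ebp1 was at 443 and 484 RPM, above both FR10 libraries.

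In FGF2 against FR10 2 factors rose and 3 fell, 8.77% of 57, where 8.84% of all tested genes were called, 1.37% higher and 7.47% lower. Medians were -0.09 for the factors and -0.33 for all genes, and with median-ratio scaling 4 factors were called higher and 1 lower, where 2.98% of all genes were called higher and 2.71% lower. Both comparisons with FGF share the FR10 libraries with the CsA comparison. Eif4g3 had 57.7 and 56.6 RPM in FR10 and 20.9 and 8.51 in FGF2, a log2 change of -2.01 ± 0.37 (SE, adjusted p = 0.0094). Without FGF2 replicate 2 or FR10 replicate 1 the call was lost. Leaving out the 3 libraries that stood apart keeps only FGF2 replicate 1 in its group, and the log2 change was then -1.41. In FGF2 replicate 2 Eif4g3 was below both ESC libraries. Eif1b had 37.3 and 22.6 RPM in FGF2 (-1.42 ± 0.43, SE, adjusted p = 0.048), and Eif2a, an initiation protein distinct from the eIF2 subunits, had 214 and 167 in FR10 and 145 and 66.6 in FGF2 (-0.94 ± 0.28, SE, adjusted p = 0.045). Both lost the call with median-ratio scaling, with a pseudocount of 0.1 RPM and without the filter on low values. The same happened without FGF2 replicate 2 or either FR10 library, and for Eif2a also without the 3 libraries, at -0.38.

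Eef2k was at 9.89 and 3.65 RPM in FGF2 and at 1.16 and 0 in FR10, where 3 reads are worth 1.16 and 1.04 RPM. The change passed (adjusted p = 0.035), but the call was lost with a pseudocount of 0.1 RPM and without the filter on low values. Its log2 size of 2.27 ± 0.62 (SE) depends on the pseudocount, and without the 3 libraries it was 2.89. Leaving out any 1 of the 4 libraries ended the call (largest adjusted p 0.18). FGF2 replicate 1 was the highest of all cultured libraries for this gene. Eif4ebp1 had 509.9 and 631 RPM in FGF2 against 292 and 441 in FR10 (0.66 ± 0.19, SE, adjusted p = 0.039). That call was lost without FGF2 replicate 2, without FR10 replicate 1, without the 3 libraries and without the filter on low values. Fitting just the 12 cultured libraries left none of the 5 called. Without the 3 libraries 8 factors were called, where 11.4% of all genes were, 1.85% higher and 9.59% lower, namely Eef2k and Eif3k higher and Eef1a1, Eif1b, Eif4a1, Eif4e, Eif4enif1 and Eif4g3 lower. In the surrounding lists Mtor, Rheb and Rps6kb1 (of 8 mTORC1 genes) fell, as did Ppp1r15b (of 10 stress genes) and Tsfm (of 8). Over all genes 7.47% were called lower. With median-ratio scaling Mtor and Rps6kb1 lost the call and Mtif3 was gained as higher. Rheb, Ppp1r15b and Tsfm kept theirs under that scaling. None of those that fell was called among the 12 cultured libraries alone or without FR10 replicate 1. Formative markers were at 72.7 to 82.1 RPM in FGF2 and 35.6 to 40.4 in FR10, and early germ cell markers at 818 to 1042 and 1919 to 1953. Their part in these values was not tested.

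Cultured E9.5 germ cells gave no called factor in CsA against FR10 and no called gene (0%). At an unadjusted p under 0.05 there was 1 factor (1.75%), beside 7.35% of all genes. The median was -0.06 for the factors and -0.11 for all genes. The smallest p was that of Eif5, the partner of eIF2 that triggers GTP hydrolysis at the start codon, with 226 and 185 RPM in FR10 and 185 and 112 in CsA (log2 difference -0.51 ± 0.21, SE, adjusted p = 0.63). Eif4g3 had 45.3 and 86.1 RPM in FR10 and 104 and 107 in CsA (0.74 ± 0.37, SE, adjusted p = 0.69), without overlap. Eif2s3x had 134 and 107 against 117 and 74.1 RPM, Eif4e had 297 and 200.4 against 249 and 134, and Eif3a had 352 and 392 against 313 and 330.5, none of which passed. Without replicate 2 of CsA the difference of Eif4e was 0.03, from -0.41. Without replicate 1 of CsA, which makes replicate 2 stand for its group, the difference of Eif4e was -0.86. Later germ cell markers summed to 804 and 134 RPM in replicates 1 and 2 of FR10 and to 437 and 69.4 in those of CsA. The part of this replicate difference in these values was not tested.

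In the test of whether the CsA effect differed between d4c7 and E9.5c5 cells no factor and no tested gene (0%) was called by limma. At an unadjusted p under 0.05 there were 4 factors (7.02%), beside 6.44% of all genes. Eif2b5 had the smallest p, with a difference of -0.88 ± 0.29 (SE, adjusted p = 0.69). It was lower in both CsA libraries of d4c7 cells, and in E9.5c5 cells it had 64.3 and 49.5 RPM in FR10 and 64.2 and 69.2 in CsA. Eef1e1, Eif4a2 and Eif3e followed at -0.77, -0.79 and -0.70, and Eif4ebp1 at 0.47. A p that misses the threshold does not show that the effects were alike.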

How the data were processed

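The deposited values are RPM, reads per gene that the authors scaled to a common library total (999098 to 999617 in these libraries), uncorrected for gene length. Tools listed, without roles, in the submitters' processing notes are TopHat 1.4.1, cutadapt 1.3 and Cufflinks 2.2.0, with build mm10. The sources used here give neither the annotation nor the strand setting of the counting, so overlapping and near-identical genes may share reads. Of 34896 listed genes 46 had no value and were left out.

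Genes at 10 RPM or more in at least 2 libraries (9561) were taken as log2(RPM + 1) into limma 3.58.1 (R 4.3.3), with 9 group means, an empirical Bayes variance trend, 9 residual degrees of freedom and a median residual SD of 0.37. A change on this scale understates that of low genes. Adjusted p-values are Benjamini-Hochberg over all tested genes, called under 0.05. No count model was run, since the values are not counts.

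The genes, roles and lists were chosen with earlier results of these data known. Every called factor is named, up to 8 in each direction by size of change, with a panel of core factors, and the 5 with the smallest p where under 3 were called. Alternatives were other pseudocounts (0.1 and 10 RPM), filters, scaling and sets of libraries, and a replicate block. Same-numbered replicates were not treated as pairs in the main fit, and whether they shared a batch cannot be told. Further genes were named from their place in a role or list.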

Additional observations from a re-analysis of the deposited data

How the results depend on the processing

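Each count of called factors was recomputed with other pseudocounts, filters, scaling and sets of libraries, and limma's adjusted p-values rest on 2 libraries per group. Without the 3 libraries that stood apart 17 factors were called in EpiLCs against ESCs (8 with all libraries) and 25 in day-4 PGCLCs against EpiLCs (17). There were 22 in FR10 against day-4 PGCLCs (8) and 8 in CsA against FR10 (0). In FGF2 against FR10, with 5 calls from all libraries, that fit leaves 1 FGF2 library, so its calls are not listed. A filter of 50 RPM left 5 calls in EpiLCs against ESCs. In FGF2 against FR10 there were 2 with a pseudocount of 0.1 RPM, 1 without a filter and 0 among the 12 cultured libraries alone. Leaving out 1 library at a time gave 4 to 6 calls in EpiLCs against ESCs, 8 to 14 in day-4 PGCLCs against EpiLCs, 2 to 4 in FR10 against day-4 PGCLCs, 0 to 10 in FGF2 against FR10 and 0 to 5 in E9.5c5 CsA against FR10, and 0 in each other comparison. Of the called genes 4 of 8, 8 of 17, 2 of 8 and 0 of 5 kept their call without any single library in the first 3 steps and in FGF2. Directions were checked for the called factors and, where under 3 were called, for the 5 with the smallest p. Among these only that of Eif4e in E9.5c5 CsA against FR10 changed, at 0.033 without CsA replicate 2 and -0.86 without CsA replicate 1. The remaining factors were not checked for this. Deviations of same-numbered replicates correlated from -0.10 to 0.34 over 36 pairs of groups, with 7 over 0.1. Whether replicates of the same number shared a batch cannot be told. With the replicate number as a block the counts of calls were 9, 18, 9 and 8 for the 3 steps and FGF2, and no other comparison gained a call. Shares of all genes called were not worked out for the filters, pseudocounts, single libraries left out, cultured libraries alone or the block. Counts under those settings thus do not compare the factors with other genes. Each fit without 1 library leaves 1 in that group. The causes of these shifts were not tested unless named.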
